A study of Mus musculus with 6 samples.

Results

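The 8 genes described here act on 1 regulatory step of protein synthesis, the phosphorylation of eIF2alpha. They are the eIF2alpha kinases Eif2ak1, Eif2ak2, Eif2ak3 and Eif2ak4, the kinase inhibitor Impact, the phosphatase subunits Ppp1r15a and Ppp1r15b, and Eif2s1, which encodes eIF2alpha itself. They were chosen by name for their place upstream of the transcription factor ATF4, and all 8 of the 46983 genes in the count tables were found and passed the filter on low counts. RNA of whole cerebellum was sequenced from 6 mice of the C57BL/6J strain at postnatal day 60, each library from its own animal. All 6 animals carried Tie2-Cre, a recombinase driven by a promoter of endothelial and blood lineages. The 3 animals labelled WT had 1 floxed and 1 intact Slc7a5 allele, so they were neither free of Cre nor of a floxed allele. In the 3 animals labelled Slc7a5-KO both alleles were floxed. Slc7a5 encodes a transporter that brings leucine and other large neutral amino acids across the blood-brain barrier. The title of the series concerns amino acid transport at that barrier.

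Phosphorylation of eIF2alpha turns eIF2 from a substrate into an inhibitor of its own exchange factor, eIF2B, so that less initiator tRNA reaches the ribosome. General translation falls, while a few mRNAs with upstream open reading frames, Atf4 among them, are translated more. Each kinase answers to its own signal. GCN2 (Eif2ak4) binds uncharged tRNA and senses amino acid shortage, PERK (Eif2ak3) senses misfolded protein in the endoplasmic reticulum, PKR (Eif2ak2) binds double-stranded RNA, and HRI (Eif2ak1) responds to heme shortage and to mitochondrial stress. These proteins are controlled largely after transcription, by binding and by phosphorylation, which RNA counts do not measure.

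The libraries held 13.4 to 34.2 M reads assigned to genes, and Slc7a5-KO replicate 3 was the shallowest. Purkinje and granule cell markers, which define cerebellar cortex, were present in every library, with summed levels of 3822 to 6587 counts in 1e+06 reads (CPM) for 8 Purkinje markers and 3121 to 5559 CPM for 8 granule cell markers. The Purkinje sum ranged from 5456 to 6587 CPM in WT and from 3822 to 5637 CPM in the animals labelled Slc7a5-KO, and the granule cell sum from 3786 to 5559 and from 3121 to 4986 CPM. The 8 Purkinje markers all lay below 0 (median log2 fold change -0.41, 3 with separate groups, 4 at an unadjusted edgeR p of 0.05, 0 called by edgeR and 1 by DESeq2), as did the 8 granule cell markers (median -0.22). The 6 choroid plexus markers summed to 2484 to 5575 CPM in WT and to 30.1 to 4754 CPM in the animals labelled Slc7a5-KO. The 8 endothelial markers summed to 315 to 392 CPM and to 330 to 408 CPM. The 6 microglia markers summed to 126.8 to 171.7 CPM in WT and to 172.1 to 203.3 CPM in the animals labelled Slc7a5-KO. Of these, 5 lay above 0 and 1 below, 2 were at an unadjusted edgeR p of 0.05, and 0 were called. The sums of the interneuron, astrocyte and Bergmann glia, oligodendrocyte and blood markers overlapped between the groups. No marker was at 0 in all libraries, and the part of these cell types in the values below was not tested. Slc7a5 itself stood at 43.2 to 72.0 CPM in WT and at 59.4 to 164 CPM in the animals labelled Slc7a5-KO (log2 fold change 0.91 ± 0.42, edgeR adjusted p = 0.84, and 1.22 with an edgeR adjusted p of 0.010 without Slc7a5-KO replicate 2, 0.55 without Slc7a5-KO replicate 1 and 0.57 with a sex term). The transcript thus did not bear out the labels, but it could not decide the genotype. Tie2-Cre is driven by a promoter of endothelial and blood lineages, while these counts cover all cells of the tissue and the whole gene. Every direction below follows the labels.

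None of the 8 genes passed the test for a difference between the groups. The edgeR quasi-likelihood test, adjusted over all 16851 genes tested by Benjamini-Hochberg, called 0 of the 8, where it called 0.0475% of all genes, all of them higher in the animals labelled Slc7a5-KO. The adjusted p of the 8 genes ran from 0.90 to 0.99. At an unadjusted p of 0.05 edgeR gave 0 of the 8, against 6.22% of all genes, and DESeq2 and limma-voom also gave 0 of the 8 with or without adjustment, with 0.355% and 0.0356% of their genes called. In none of the 8 did the 3 animals of one group lie apart from the 3 of the other, which 11.5% of all genes did (5.93% higher and 5.54% lower in the animals labelled Slc7a5-KO). On the log2 scale the fold changes of the 8 had a median of 0.09, beside 0.0022 over all genes tested. The median of the 8 moved to 0.03 when WT replicate 2 was left out and to 0.06 for WT replicate 3. It moved to 0.05 for either Slc7a5-KO replicate 1 or replicate 3, to 0.11 for WT replicate 1 and to 0.13 for Slc7a5-KO replicate 2. These values come from whole tissue, in which fewer cells of a type and less RNA per cell cannot be told apart.

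**Figure D1:**
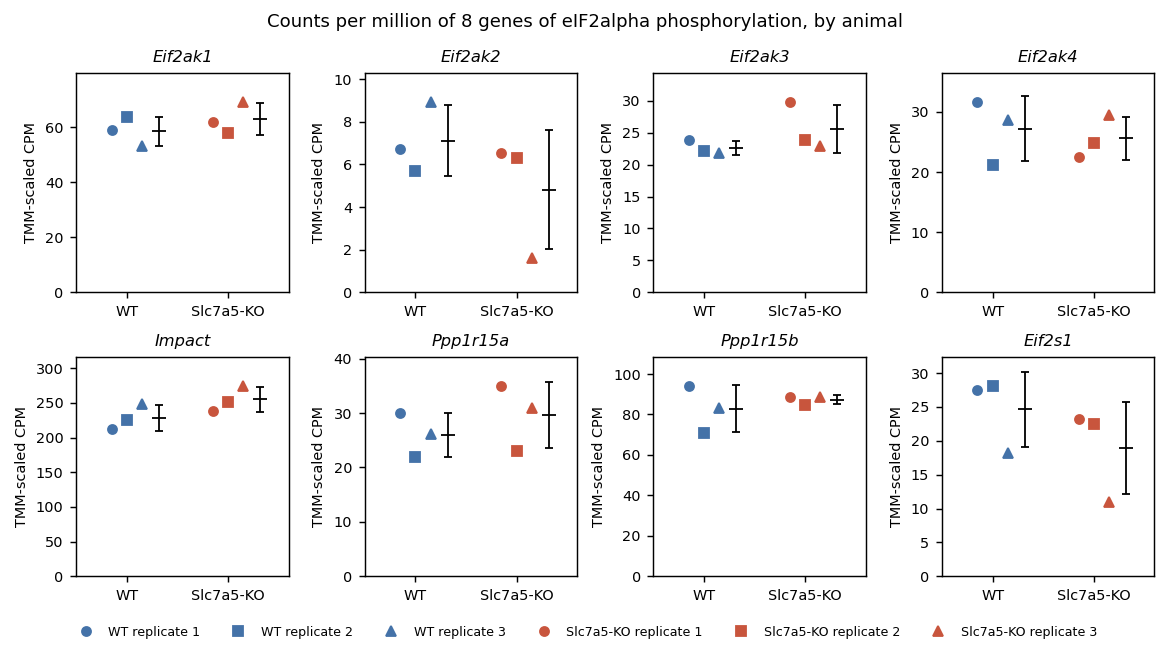
Level of each of the 8 genes (TMM-scaled CPM, linear axis from 0) in the 3 WT and 3 Slc7a5-KO libraries, with the symbol marking the replicate and the black bar giving the mean ± SD of the group. The groups overlap in all 8 genes, and Slc7a5-KO replicate 3 is lowest for Eif2ak2 (1.62 CPM) and Eif2s1 (11.03 CPM).

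The gene for GCN2, the kinase that uncharged tRNA activates, was not called and its groups overlapped. Eif2ak4 (ENSMUSG00000005102.13, GRCm38 chromosome 2, 118388618 to 118475234, plus strand, protein-coding) measured 31.7, 21.3 and 28.7 CPM in WT replicates 1 to 3. The values were 22.5, 24.8 and 29.6 CPM in the animals labelled Slc7a5-KO. The lowest and the highest value of the 6 were both in WT. The means were 27.2 ± 5.37 and 25.6 ± 3.58 CPM (SD, n = 3 each), a 0.940-fold change with a 95% interval of 0.705 to 1.25 (log2 -0.09 ± 0.20, SE, edgeR adjusted p = 0.99). That sign turned when WT replicate 1 was left out (log2 0.04).

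Impact competes with GCN2 for its coactivator GCN1 and is abundant in neurons. Impact (ENSMUSG00000024423.5, GRCm38 chromosome 18, 12955852 to 12992950, plus strand, protein-coding) measured 211.9, 225 and 249 CPM in WT replicates 1 to 3. In the animals labelled Slc7a5-KO it was at 239, 252 and 275 CPM. The highest WT animal lay above the lowest Slc7a5-KO animal, so the groups overlapped. The fold change was 1.12 with a 95% interval of 0.932 to 1.33 (edgeR adjusted p = 0.93). Within each library, Impact exceeded Eif2ak4 by 3.28, 3.95 and 3.66 on the log2 scale of CPM per kb in WT replicates 1 to 3, and by 3.95, 3.88 and 3.76 in the animals labelled Slc7a5-KO. That balance of inhibitor to kinase, chosen after the values were seen, differed by 0.23 (2-sided exact permutation p = 0.3, 0.6 when adjusted over the 2 balances tested, smallest possible 0.1).

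Other parts of GCN2 activation were not called either. The list of kinase cofactors and regulators holds GCN1 and the P-stalk proteins of the ribosome, which activate GCN2, and the partners of the other kinases. edgeR called 0 of its 13 genes (0 at an unadjusted p of 0.05, and 0 by DESeq2 and limma-voom), with a median log2 fold change of -0.04. With 1 library left out that median ran from -0.12 (WT replicate 1) to 0.10 (WT replicate 2). Gcn1 stood at 50.7 to 57.2 CPM in WT and at 49.9 to 64.6 CPM in the animals labelled Slc7a5-KO, and Rplp0, a P-stalk protein, at 101 to 144 and 90.4 to 115 CPM. Gcn1 and Rplp0 were chosen after their values were seen. Of the 13 genes, 2 separated the groups, with the animals labelled Slc7a5-KO higher, where 5.93% of all genes did. They were Adar, at 153 to 195 CPM in WT and 198 to 219 CPM in those animals, and Map3k20, at 9.71 to 11.2 and 11.3 to 13.0 CPM. Map3k20 was named after seeing its values.

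PERK is a transmembrane kinase of the endoplasmic reticulum. Its gene Eif2ak3 (ENSMUSG00000031668.14, GRCm38 chromosome 6, 70844515 to 70905245, plus strand, protein-coding) measured 23.8, 22.2 and 21.9 CPM in WT replicates 1 to 3. The animals labelled Slc7a5-KO had 29.9, 24.0 and 23.0 CPM. Replicate 1 was the highest of the 6, and replicate 3 lay within the WT range. Its fold change was 1.13 with a 95% interval of 0.863 to 1.49 (edgeR adjusted p = 0.96).

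Genes of the endoplasmic reticulum stress response, the setting in which PERK acts, were spread around 0. Of 10 chaperones and targets of XBP1 and ATF6, 5 lay above 0 and 5 below, with a median log2 fold change of -0.0004, and edgeR, DESeq2 and limma-voom called 0 (1 at an unadjusted edgeR p of 0.05). With 1 library left out that median ran from -0.07 (WT replicate 1) to 0.08 (WT replicate 2). Hspa5, the chaperone BiP that holds PERK inactive, was chosen after its values were seen and stood at 117, 159 and 120 CPM in WT and at 135, 122 and 123 CPM in the animals labelled Slc7a5-KO. Herpud1, which serves the breakdown of misfolded proteins, was the member that separated the groups, at 82.0, 107 and 75.3 CPM against 130, 129 and 132 CPM (log2 0.57 ± 0.14, edgeR adjusted p = 0.29, 0.040 when genes with low counts were kept, and 0.011 in the authors' deposited table). Of all genes, 5.93% separated the groups with the animals labelled Slc7a5-KO higher. Calr, a calcium-binding chaperone, had 0.18 ± 0.13. Dnajc3, an inhibitor of PERK and PKR, had -0.27 ± 0.16 on the log2 scale (edgeR adjusted p = 0.86).

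HRI had the most abundant transcript of the 4 kinases. Eif2ak1 (ENSMUSG00000029613.15, GRCm38 chromosome 5, 143817788 to 143904251, plus strand, protein-coding) measured 59.0, 63.7 and 53.2 CPM in WT replicates 1 to 3. The animals labelled Slc7a5-KO had 62.0, 58.0 and 69.3 CPM. Replicate 2 of that group lay below 2 of the WT animals, so the groups overlapped. This was a fold change of 1.08 with a 95% interval of 0.873 to 1.33 (edgeR adjusted p = 0.97). Exons of 2 genes on the opposite strand, Aimp2 and Ankrd61, cover 8.59% and 3.03% of its exon bases. At the Eif2ak1 locus 22.1% to 27.8% of the reads lay on the strand opposite to the gene, and only reads on the gene's own strand were counted. Antisense transcripts of unknown function also cover 8.05% of the exon bases of Eif2ak3 (Gm43292) and 11.4% of those of Ppp1r15b (Gm26616), which strand-specific counting kept apart.

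Heme is the classical ligand of HRI. Of 10 genes of heme synthesis and breakdown, 5 lay above 0 and 5 below, and edgeR, DESeq2 and limma-voom called 0 (1 at an unadjusted edgeR p of 0.05). Hmox1, the inducible heme oxygenase that breaks heme down, was at 13.5, 10.7 and 13.2 CPM in WT and at 15.8, 21.9 and 24.7 CPM in the animals labelled Slc7a5-KO (log2 0.73 ± 0.23, edgeR adjusted p = 0.55). The groups did not overlap, which 5.93% of all genes showed with the animals labelled Slc7a5-KO higher. Of the 10 genes of the list, 1 separated higher and 1 lower. Fech, which inserts iron to make heme, had -0.27 ± 0.14 (edgeR adjusted p = 0.83). Dele1 and Oma1, which carry the mitochondrial signal to HRI, were chosen after their values were seen and had log2 fold changes of -0.04 and -0.0087.

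PKR had the lowest level of the 8, and 1 animal set its mean apart. Eif2ak2 (ENSMUSG00000024079.4, GRCm38 chromosome 17, 78852564 to 78882573, minus strand, protein-coding) measured 6.72, 5.70 and 8.94 CPM in WT replicates 1 to 3. The animals labelled Slc7a5-KO had 6.53, 6.32 and 1.62 CPM. Replicates 1 and 2 lay within the WT range, and replicate 3 lay below every other animal. Its 22 reads give a 95% Poisson interval of 1.01 to 2.45 CPM, which covers counting error only and does not reach the next animal. The fold change was 0.688 with a 95% interval of 0.375 to 1.26 (log2 -0.54 ± 0.42, edgeR adjusted p = 0.93). Without Slc7a5-KO replicate 3 the log2 value was -0.15 (edgeR adjusted p = 1).

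PKR is itself an interferon-induced gene, so its level was set beside that list. The 10 interferon response genes had a median log2 fold change of -0.47, with 4 above 0 and 6 below, and -0.28 without Slc7a5-KO replicate 2. edgeR, DESeq2 and limma-voom called 0 (1 at an unadjusted edgeR p of 0.05). Ifi27 stood at 21.5, 19.7 and 17.5 CPM in WT and at 16.4, 9.31 and 13.4 CPM in the animals labelled Slc7a5-KO (log2 -0.59 ± 0.24, edgeR adjusted p = 0.74). Of the 10 genes, 2 separated the groups, lower in the animals labelled Slc7a5-KO, where 5.54% of all genes did. They were Ifi27 and Isg15, the latter named after seeing its values. Ifit3 had -0.56 ± 0.35. In Slc7a5-KO replicate 3, where Eif2ak2 was lowest, 3 of the 10 were also lowest of the 6 libraries and 7 were not. The 3 were Ifit3 at 3.09 CPM and, named after seeing their values, Isg15 at 0.956 CPM and Oas1a at 0. Adar, which edits double-stranded RNA and so limits PKR, was at 0.22 ± 0.13 on the log2 scale (edgeR adjusted p = 0.85).

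Neither phosphatase subunit was called. PPP1R15A (GADD34) is the stress-induced subunit that directs protein phosphatase 1 to eIF2alpha, and PPP1R15B (CReP) is the constitutive one. Ppp1r15a (ENSMUSG00000040435.10, a protein-coding gene on the minus strand of GRCm38 chromosome 7, 45522916 to 45526268) measured 30.03, 21.9 and 26.1 CPM in WT replicates 1 to 3. The animals labelled Slc7a5-KO had 35.01, 23.1 and 31.0 CPM. Replicates 1 and 3 of that group were above all WT animals and replicate 2 was not. Its fold change was 1.14 with a 95% interval of 0.855 to 1.52 (log2 0.19 ± 0.20, edgeR adjusted p = 0.96).

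Ppp1r15b (ENSMUSG00000046062.5, GRCm38 chromosome 1, 133131143 to 133139783, plus strand, protein-coding) measured 94.2, 71.0 and 83.2 CPM in WT. It was at 88.5, 84.8 and 88.7 CPM in the animals labelled Slc7a5-KO, all within the WT range. This was a fold change of 1.05 with a 95% interval of 0.862 to 1.29 (edgeR adjusted p = 0.98), and its sign turned when WT replicate 2 was left out (log2 -0.02). The inducible subunit relative to the constitutive one, as log2 of their CPM per kb, was -0.74 ± 0.02 in WT and -0.65 ± 0.27 in the animals labelled Slc7a5-KO (SD, n = 3 each). That balance differed by 0.09 (2-sided exact permutation p = 0.7, smallest possible 0.1). Both balances in this account were chosen after the values were seen.

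Ppp1r15a is also a fast-responding gene, and its order over the animals was set beside the immediate early genes, which neuronal activity and handling induce. The score of 10 such genes, the mean of log2 CPM centred on each gene, was 0.31, -0.68 and -0.47 in WT replicates 1 to 3 and 0.75, -0.16 and 0.25 in the animals labelled Slc7a5-KO. Centred log2 CPM of Ppp1r15a was 0.13, -0.32 and -0.08, then 0.35, -0.25 and 0.17. The 3 libraries above the mean were the same for both measures. Of the 10 tested genes, all were above 0 with a median log2 fold change of 0.38. That median was 0.11 without Slc7a5-KO replicate 1 (7 above 0) and 1.01 without WT replicate 1 (11 above 0). It was 0.22 when WT replicate 3 was left out and 0.57 when Slc7a5-KO replicate 3 was (11 above 0). The medians over 11 genes include Egr2, named after seeing its values, which the main fit had filtered out. Egr2 was at 0 to 0.0848 CPM in WT and at 0.294 to 0.972 CPM in the animals labelled Slc7a5-KO. These medians thus differ in their genes as well as in the library left out. Of the 10 genes, edgeR and limma-voom called 0 and DESeq2 called 1, Egr1, and 2 passed at an unadjusted edgeR p of 0.05. Egr1 had 1.04 ± 0.20 (edgeR adjusted p = 0.068, 0.00375 without Slc7a5-KO replicate 2, 1.16e-05 with no filter on low counts, and 9.28e-05 in the authors' deposited table) and Fosb 1.24 ± 0.56 (edgeR adjusted p = 0.78). The part of these genes' induction in the level of Ppp1r15a was not tested.

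The catalytic subunits that PPP1R15 proteins recruit were measured as well, and edgeR, DESeq2 and limma-voom called 0 of the 3 (1 at an unadjusted edgeR p of 0.05). Ppp1cb stood at 336, 387 and 367 CPM in WT and at 326, 250.2 and 274 CPM in the animals labelled Slc7a5-KO. Each of the latter lay below all WT animals, as was so for 5.54% of all genes. The log2 fold change of Ppp1cb was -0.36 ± 0.13 (edgeR adjusted p = 0.67). Ppp1ca had 0.04 ± 0.13.

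The substrate of the kinases was lower in 1 animal, as PKR was. Eif2s1 (ENSMUSG00000021116.9, GRCm38 chromosome 12, 78861819 to 78887010, plus strand, protein-coding) measured 27.5, 28.1 and 18.2 CPM in WT replicates 1 to 3. The animals labelled Slc7a5-KO had 23.2, 22.5 and 11.03 CPM. Replicate 3 was again the lowest of the 6, and the other 2 lay within the WT range. The fold change was 0.773 with a 95% interval of 0.530 to 1.13 (log2 -0.37 ± 0.26, edgeR adjusted p = 0.90). Leaving out Slc7a5-KO replicate 3 gave -0.11 on the log2 scale (edgeR adjusted p = 1). Of the 50-base windows of its transcripts, 5.76% also occur in transcripts of other annotated genes, and the deposited tables list 0 reads that align to several places.

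The partners of eIF2alpha were not called either. Of 9 genes for the other eIF2 subunits, the 5 eIF2B subunits and eIF5, edgeR, DESeq2 and limma-voom called 0 (1 at an unadjusted edgeR p of 0.05), and the median log2 fold change was 0.07. With 1 library left out that median ran from -0.11 (WT replicate 1) to 0.16 (Slc7a5-KO replicate 3). Among the eIF2B subunits, Eif2b3 ran from 4.55 to 10.8 CPM in WT and from 7.14 to 11.1 CPM in the animals labelled Slc7a5-KO. Eif2s2, the beta subunit, was lowest in Slc7a5-KO replicate 3 as well, at 8.31 CPM against 12.5 to 19.3 CPM in the other 5. Eif2b3 and Eif2s2 were chosen after their values were seen. Eif5, the factor that makes eIF2 hydrolyse its GTP, was lower in each Slc7a5-KO animal than in any WT animal, at 149 to 169 against 177 to 200.5 CPM (log2 -0.23 ± 0.12, edgeR adjusted p = 0.83). Of all genes, 5.54% were separated in that direction.

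The gamma subunit has an X-linked and a Y-linked gene, and the groups differed in sex. By Xist and Y-linked transcripts, WT held 1 female and 2 males and the group labelled Slc7a5-KO 2 females and 1 male. Eif2s3y, chosen after its values were seen, was at 10.7 to 22.1 CPM in males and at 0 to 0.0722 CPM in females. Eif2s3x was at 2.49 CPM in the WT female and at 6.18 and 8.30 CPM in the Slc7a5-KO females, and at 2.46 to 3.93 CPM in the 3 males. Its log2 fold change was 1.04 ± 0.40 (edgeR adjusted p = 0.71), or 0.89 with a term for sex (edgeR adjusted p = 0.65). How far reads of the X-linked and the Y-linked copy can be told apart was not tested, so both values are uncertain.

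**Figure D2:**
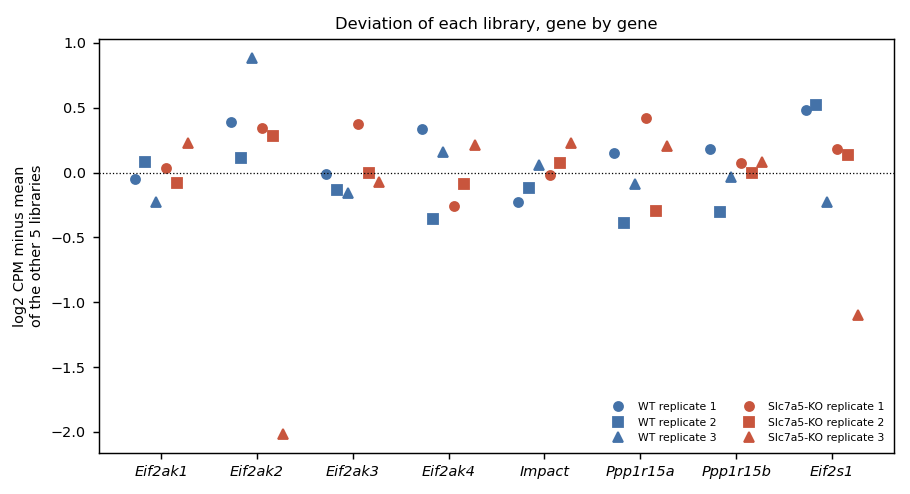
Deviation of each library from the mean of the other 5 (log2 CPM, prior count 2, vertical axis) for the 8 genes, with colour for the group and symbol for the replicate. Slc7a5-KO replicate 3 lies at -2.02 for Eif2ak2 and -1.10 for Eif2s1, and all 6 libraries of the other 6 genes lie between -0.39 and 0.42.

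The low values of Eif2ak2 and Eif2s1 in Slc7a5-KO replicate 3 were large for that library. Against the mean of the other 5 libraries, Eif2ak2 was at -2.02 and Eif2s1 at -1.10 on the log2 scale. Those deviations stood at percentiles 0.0502 and 1.03 of the 11943 genes with a mean log2 CPM over 2. The other 6 genes lay between -0.07 and 0.23 there. When all genes were split by GC content into 5 bins, the median deviation in that library ran from -0.08 in the lowest to 0.04 in the highest bin. The longest transcripts of Eif2ak2 and Eif2s1 have 43.9% and 40.8% GC, in bins 2 and 1. Impact, in bin 1 too at 42.1% GC, was at 0.23 there. With offsets for GC and length, the log2 fold change was -0.47 for Eif2ak2 and -0.23 for Eif2s1. Over the 6 libraries log2 CPM of the 2 genes had a Pearson correlation of 0.77, a description in which both genes share Slc7a5-KO replicate 3.

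**Figure D3:**
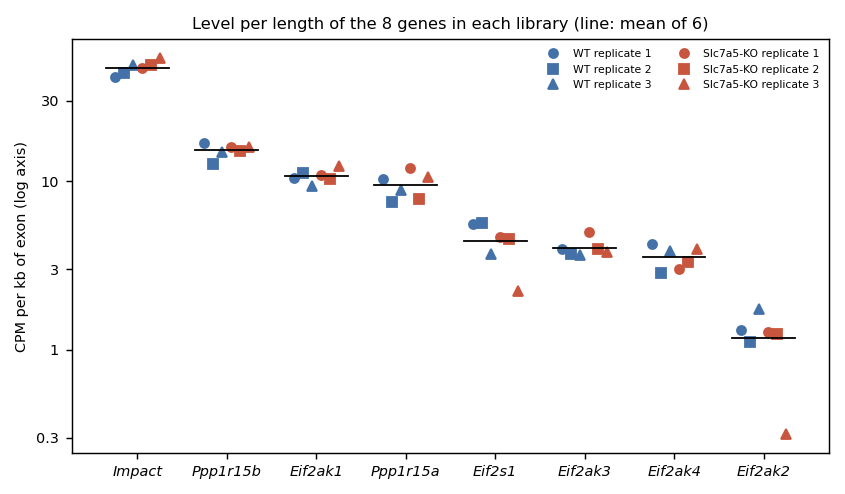
Level per exon length (CPM per kb, log axis) of the 8 genes in the 6 libraries, ordered by the mean over all 6, which the line marks. Impact is highest at 41.3 to 53.6 and Eif2ak2 lowest at 0.316 to 1.75 CPM per kb. Eif2s1 (2.23 to 5.68), Eif2ak3 (3.64 to 4.96) and Eif2ak4 (2.85 to 4.25) have overlapping ranges.

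Scaled by exon length, the inhibitor of GCN2 was far more abundant than any kinase. Impact had a mean of 47.2 ± 4.28 CPM per kb over the 6 libraries (SD), which stood at percentile 95.4 of all genes tested. Ppp1r15b followed with 15.2 ± 1.40, Eif2ak1 with 10.7 ± 0.97 and Ppp1r15a with 9.48 ± 1.71 CPM per kb. Eif2s1 had 4.40 ± 1.29, Eif2ak3 4.00 ± 0.49, Eif2ak4 3.54 ± 0.56 and Eif2ak2 1.17 ± 0.47 CPM per kb. Impact was above Ppp1r15b in each of the 6 libraries, by 2.45 to 3.46 times.

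Not every neighbour in that order could be separated. Eif2ak1 was above Ppp1r15a in 5 of 6 libraries, Eif2s1 above Eif2ak3 in 4 of 6, and Eif2ak3 above Eif2ak4 in 3 of 6, with overlapping ranges in each pair. The ranges of Ppp1r15b and Eif2ak1 did not overlap by the union of exons, but by the length of the principal transcript Ppp1r15b was above in 4 of 6 libraries only. By that length Ppp1r15a was above Eif2s1 in 5 of 6 libraries and no longer in 6, Eif2s1 above Eif2ak3 in 5 of 6, and Eif2ak1 above Ppp1r15a in 6 of 6. The order of the means was the same by both lengths. Of the summed level of the 4 kinases, Eif2ak1 made up 54.0% ± 4.82 in WT and 56.3% ± 3.36 in the animals labelled Slc7a5-KO. Eif2ak3 made up 19.6% ± 0.19 and 21.5% ± 2.89, and Eif2ak4 19.0% ± 3.43 and 17.4% ± 2.29. Eif2ak2 made up 7.30% ± 1.85 and 4.82% ± 2.83 (SD, n = 3 each). GCN2, the kinase of amino acid shortage, gave at most 21.3% of the summed kinase level in any library, or 22.9% by the length of the principal transcript.

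**Figure D4:**
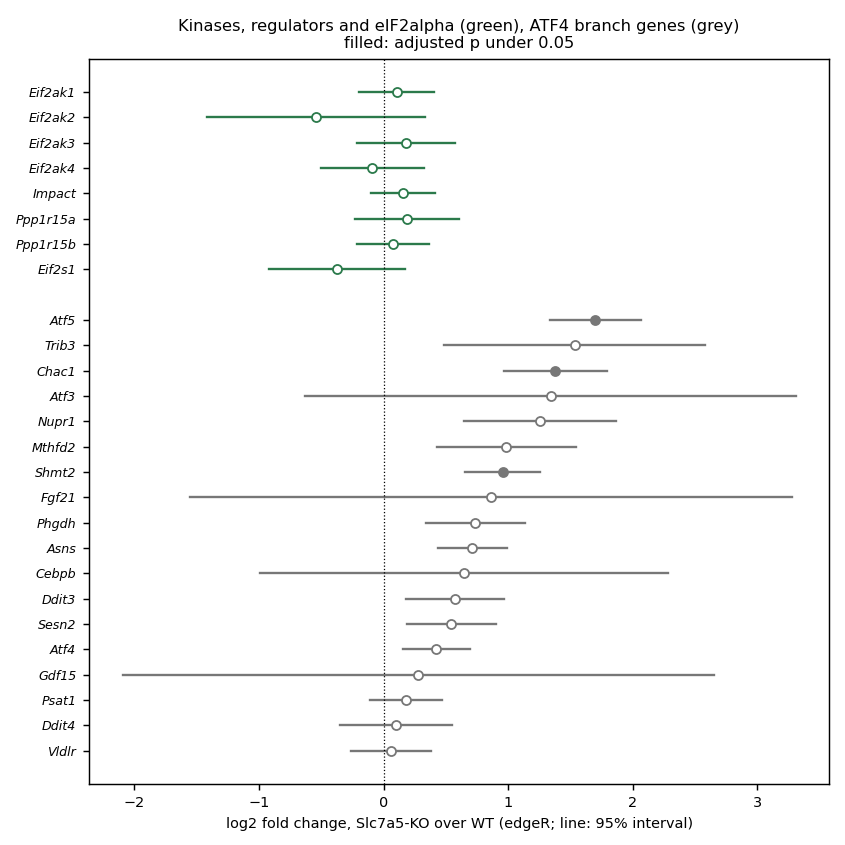
Log2 fold change (Slc7a5-KO over WT, edgeR, horizontal axis) with its 95% interval for the 8 genes in green and for 18 ATF4 branch genes in grey, with filled points for an adjusted p under 0.05. The 8 green intervals all include 0, and the filled points are Atf5, Chac1 and Shmt2, at 0.96 to 1.70.

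Downstream of the 8 genes, 3 of the 18 ATF4 branch genes rose in the animals labelled Slc7a5-KO. The 18 fold changes all lay above 0 (16 of 18 without WT replicate 1 or Slc7a5-KO replicate 1), with a median log2 fold change of 0.72 (0.58 to 0.82 when 1 library was left out). edgeR called 3 higher and 0 lower, limma-voom 3 and DESeq2 5, and 12 separated the groups with the animals labelled Slc7a5-KO higher, where 5.93% of all genes did. The other 6 (Ddit4, Psat1, Cebpb, Vldlr, Fgf21 and Gdf15, named after seeing their values) overlapped between the groups. In the same animals all 8 Purkinje and all 8 granule cell markers lay below 0, and their part in these values was not tested. The list was chosen with earlier results of these animals known, so its direction is no independent evidence. The 3 called were Atf5, a transcription factor under the same translational control as Atf4, Chac1, which degrades glutathione, and Shmt2, a mitochondrial enzyme of serine and folate metabolism.

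Atf5 rose from 25.2, 24.5 and 19.5 CPM in WT replicates 1 to 3 to 91.0, 61.9 and 71.8 CPM (95% interval of the log2 fold change 1.33 to 2.06, edgeR adjusted p = 0.00017). Chac1 rose from 13.98, 16.9 and 13.0 to 34.3, 45.8 and 34.0 CPM (interval 0.97 to 1.79, edgeR adjusted p = 0.0055, but 0.068 without WT replicate 3). Shmt2 rose from 37.8, 39.5 and 37.4 to 81.6, 74.2 and 66.5 CPM (interval 0.65 to 1.26, edgeR adjusted p = 0.0098, but 0.14 without WT replicate 3 and 0.068 without WT replicate 1). The highest upper bound among the 8 genes was 0.60, for Ppp1r15a, and the difference between the genes was not tested. Atf4, which was named after seeing its values, was at 376, 407 and 367 CPM in WT and at 543, 542 and 457 CPM in the animals labelled Slc7a5-KO (log2 0.42 ± 0.13, edgeR adjusted p = 0.53). In the authors' deposited table Atf4 had an adjusted p of 0.022. Atf5, Chac1 and Shmt2 were under 0.05 there too, where 0.900% of its genes were. So were, named after seeing their values, Asns (1.2e-05), Nupr1 (0.0032), Phgdh (0.0054) and Mthfd2 (0.017). The rest of the 18 were not under 0.05 there or had no adjusted p.

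**Figure D5:**
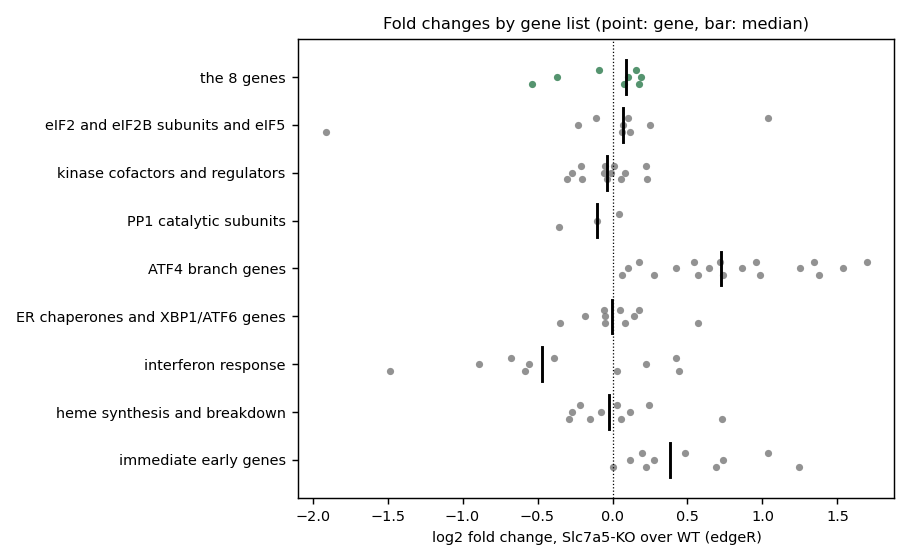
Log2 fold changes (Slc7a5-KO over WT, edgeR, horizontal axis) of the genes of each list, 1 point per gene, with a black bar at the median. The median of the 8 genes is 0.09, that of the ATF4 branch 0.72, of the immediate early genes 0.38 and of the interferon response -0.47, which move with 1 library left out to 0.03 to 0.13, 0.58 to 0.82, 0.11 to 1.01 and -0.55 to -0.28. The value of 1.01 includes Egr2, which the main fit did not test.

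Upstream sequences of 3 genes are shown because 2 of the 8 genes, the interferon-linked Eif2ak2 and the stress-induced Ppp1r15a, were not called, while Chac1 was. Of the 250 bases before each RefSeq start (GRCm38.p6), only the longest stretch that holds no annotated untranslated exon is printed. The stretches lie at chr17:78882574-78882822 (minus strand) for Eif2ak2, chr7:45526442-45526518 (minus) for Ppp1r15a and chr2:119350992-119351228 (plus) for Chac1. Capitals mark matches to the motifs named next.
Eif2ak2: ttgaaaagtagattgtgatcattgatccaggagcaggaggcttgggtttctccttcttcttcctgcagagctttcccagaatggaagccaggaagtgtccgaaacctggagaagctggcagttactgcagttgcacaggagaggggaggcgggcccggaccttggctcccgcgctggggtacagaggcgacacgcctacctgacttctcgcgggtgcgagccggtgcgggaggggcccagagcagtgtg
Ppp1r15a: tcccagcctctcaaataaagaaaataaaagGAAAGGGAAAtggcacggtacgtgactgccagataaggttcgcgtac
Chac1: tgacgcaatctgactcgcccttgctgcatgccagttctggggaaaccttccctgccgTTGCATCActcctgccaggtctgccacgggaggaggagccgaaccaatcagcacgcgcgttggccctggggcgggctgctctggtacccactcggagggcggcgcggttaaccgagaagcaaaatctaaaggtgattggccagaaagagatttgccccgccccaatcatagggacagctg

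Windows were searched on both strands for the C/EBP-ATF element through which ATF4 acts, as TGATGNAA, and for the interferon-stimulated element, as GAAA, any 2 bases and GAAA. RefSeq windows were found for Eif2ak1, Eif2ak2, Eif2ak3, Eif2ak4, Ppp1r15a and Eif2s1. Over all 32851 windows of 250 bases, 3.45% held the first motif and 2.98% the second. None of the 6 genes with a window held TGATGNAA, and 6 of the 18 ATF4 branch genes and, of the endoplasmic reticulum list, Herpud1 did. Asns, Atf3, Nupr1, Fgf21 and Vldlr are named here for their match. In Chac1, Atf3, Nupr1, Fgf21, Vldlr and Herpud1 it was the same 8 letters, TTGCATCA on the printed strand, and in Asns it was TGATGAAA. The second motif was found in Ppp1r15a, as GAAAGGGAAA from 220 to 211 bases before the start, and in Eif2s1, as GAAACAGAAA from 212 to 203 bases before it. It was found in 6 of the 7 interferon response genes with a window and not in the window of Eif2ak2. A match or its absence describes these letters only.

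The authors' deposited table, from the same libraries, had the same outcome for the 8 genes. It listed 0 of them at an adjusted p under 0.05, where it listed 0.900% of its genes, and 0 at an unadjusted p under 0.05. In the authors' deposited table the unshrunken log2 fold changes ran from -0.55 for Eif2ak2 to 0.19 for Ppp1r15a, and the adjusted p from 0.61 for Eif2s1 to 0.91 for Eif2ak4.

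Across the 6 libraries, the genes whose log2 CPM followed each of the 8 most closely were found among 11567 genes with a mean of at least 5 CPM. Eif2ak4 was closest to Zbtb16 and Prr5 (Pearson r of 0.995 and 0.993) and Impact to Tox and Zfp689 (0.989 and 0.988). Ppp1r15a was closest to Plagl1 and Atp2b3 (0.997 and 0.993), and Ppp1r15b to Arid1a and Asap2 (0.992 and 0.992). Eif2ak1 was closest to G6pdx and Ascc2 (0.990 and 0.989), Eif2ak2 to Ppp2r2c and Tgfbr1 (0.994 and 0.991), Eif2ak3 to Setd1a and Ccdc3 (0.983 and 0.976), and Eif2s1 to Crem and Jak2 (0.989 and 0.984). With 6 points, 12 to 52 genes exceeded 0.95 for each of the 8. Among the 8 themselves r ran from -0.89 for Impact and Eif2s1 to 0.77 for Eif2ak2 and Eif2s1. All points share the 6 libraries and their depth, and these values are a description.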

How the data were processed

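Whole-cerebellum RNA of 6 mice was measured. Per the labels' protocols, libraries were made from total RNA with a kit for mRNA that keeps the strand. The deposited count tables hold reads per gene, not normalised. Per the submitters' processing notes, STAR 2.5.4 and the build GRCm38 (mm10) were used. The deposited tables list 0 multimapping reads. The authors' deposited table holds a mean normalised count (a signal), log2 fold changes, a Wald score and p-values. Per the submitters' processing notes it came from DESeq2 1.10.1 in R 3.2.4.

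Reverse-strand counts were used, which held 94.8% to 95.8% of stranded reads. Reads assigned to no gene or several, 19.5% to 22.2%, stayed out of library sizes. Symbols matched 46488 of 46983 identifiers. Positions and exon lengths come from GENCODE M21 on GRCm38. Its identifiers of Impact, Ppp1r15a and Eif2s1 are of a later version than those of the counts, so levels per kb join 2 annotations. After filterByExpr (minimum count 10, minimum total 15), edgeR 4.0.16 in R 4.3.3 scaled libraries by TMM and tested 16851 genes (quasi-likelihood, robust, 2-sided), with Benjamini-Hochberg adjustment at 0.05. A 95% interval is the log2 fold change with its SE (the estimate over the root of its F) times the t quantile. The fit was tested on simulated data. CPM are TMM-scaled, and log2 CPM uses a prior count of 2. With 13.4 to 34.2 M gene reads, intervals of counts cover counting error only, since PCR copies were not marked.

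Genes were named by a rule: the 8 genes, Slc7a5, from each pathway list the genes past the threshold or else the 2 with the smallest p, and for each of the 8 the 2 genes most correlated with it. Names outside that rule are marked as such. The members and lists were chosen with earlier results of these data known. Alternatives were RLE and plain scaling, no filter, DESeq2 1.42.0, limma-voom (limma 3.58.1), unstranded counts, thinning, leaving out each library and a replicate block. A sex term, GC and length offsets and another exon length were added after seeing the data.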

Additional observations from a re-analysis of the deposited data

How the results depend on the processing

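No alternative called any of the 8 genes, with adjusted p of at least 0.66 in each. Their log2 fold changes kept their sign in 125 cases and turned in 3. Eif2ak4 was at 0.00054 with a sex term and lay between -0.24 and 0.035 with 1 library left out (0.035 without WT replicate 1), and Ppp1r15b ran from -0.020 to 0.18 (-0.020 without WT replicate 2). Ppp1r15a lay between 0.050, when Slc7a5-KO replicate 1 was left out, and 0.34, when replicate 2 was, Eif2ak3 between 0.053 and 0.25, Eif2ak1 between 0.037 and 0.17, and Impact between 0.10 and 0.22. With 1 library left out, Eif2ak2 lay between -0.81 and -0.15 and Eif2s1 between -0.55 and -0.11, nearest to 0 without Slc7a5-KO replicate 3. Ppp1ca turned to -0.00058 with a sex term and ran from -0.054 (without WT replicate 3) to 0.15. The count of all genes called, 8, was 71 with no filter on low counts, 47 by DESeq2, 16 with a sex term and 3 to 20 when 1 library was left out (3 without WT replicate 3, 5 without either WT replicate 1 or the third Slc7a5-KO animal, 20 without Slc7a5-KO replicate 1 or 2). The 3 pathway genes called became 7 with no filter, 6 by DESeq2 and 1 to 5 when 1 library was left out (1 without WT replicate 3, 5 without Slc7a5-KO replicate 2). The cause was not tested. Deviations of same-numbered animals correlated at -0.04, -0.06 and -0.03, and those of other pairs at -0.03 to 0.07. These values show no pairing by replicate number, but they cannot tell whether animals were related or processed together. With the replicate block 6 genes were called, 3 of them pathway genes and 0 of the 8. Depth limits Eif2ak2 most, with 22 reads in Slc7a5-KO replicate 3.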
